A study of Homo sapiens with 6 samples.

Results

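The genes described here encode the polymers of the cytoskeleton other than actin and keratin, together with proteins that bind microtubules: 12 alpha and beta tubulin isotypes, 4 gamma, delta and epsilon tubulins, 9 proteins of the microtubule lattice, 5 plus-end proteins, 3 stathmins, the tubulin ligase TTL and the tubulin chaperone TBCA, 6 cytoplasmic intermediate filament proteins and 3 lamins. They were chosen by name rather than by a cut on their levels, although earlier results of these data were known. All 44 were found among the 58735 entries of the expression table. RNA sequencing had been done on cells labelled SKOV3, an established line of human ovarian cancer, in 2 states with 3 libraries each. Floating spheres, which the sample titles call stem cells and which are called spheres below, had grown unattached in low-attachment wells in DMEM/F12 with the serum replacement B27, to which the study's methods add growth factors and insulin. Sphere-differentiated cells, titled adherent cells and called by that title below, were the cells of such spheres after reculture in DMEM with fetal bovine serum, where they attached to the dish. Attachment, serum, basal medium and growth factors thus differ together between the states and cannot be told apart, and no genetic change or drug treatment is given for either state. The study asked which genes change as stem-like cells differentiate.

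Microtubules are hollow polymers of alpha and beta tubulin heterodimers, whose isotypes differ mainly in the acidic tail at the end of the protein. Polymers are nucleated from rings that contain gamma tubulin, lengthened and tethered by plus-end proteins, held together by lattice-binding proteins, and taken apart when stathmins sequester free dimers. Intermediate filaments differ by cell type, with vimentin in mesenchymal cells, nestin in progenitor cells and neurofilaments in neurons, while lamins line the nucleus of nearly every animal cell. In ovarian cancer, the beta tubulin TUBB3 and the stathmin STMN1 have been studied for their part in the response to taxanes, drugs that bind microtubules.

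The ends of the coding sequences are shown because the tail is where the isotypes are told apart, and because some isotypes differ by so few bases that reads cannot always be assigned. Sequences are the last 75 coding bases, stop codon included, from the GENCODE 29 annotation on hg38. Those of 6 beta isotypes are given, and capitals mark bases that differ from TUBB4B or have no counterpart in its window.
TUBB4B: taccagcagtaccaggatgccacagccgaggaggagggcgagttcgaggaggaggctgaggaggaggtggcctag
TUBB: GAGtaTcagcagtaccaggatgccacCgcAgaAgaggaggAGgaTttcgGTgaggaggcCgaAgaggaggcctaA
TUBB6: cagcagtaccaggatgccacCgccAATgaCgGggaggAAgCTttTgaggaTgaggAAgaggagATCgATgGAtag
TUBB2A: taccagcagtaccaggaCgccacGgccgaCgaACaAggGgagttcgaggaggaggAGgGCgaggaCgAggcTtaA
TUBB2B: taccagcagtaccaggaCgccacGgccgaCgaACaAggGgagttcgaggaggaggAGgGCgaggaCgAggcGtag
TUBB3: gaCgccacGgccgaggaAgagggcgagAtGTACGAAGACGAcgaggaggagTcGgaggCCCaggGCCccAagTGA
The genes lie at chr9:137241213-137243707 (TUBB4B), chr6:30720201-30725426 (TUBB), chr18:12307669-12344320 (TUBB6), chr6:3153669-3157526 (TUBB2A), chr6:3224261-3231730 (TUBB2B), and chr16:89921392-89938761 (TUBB3). The tail of TUBB3 carried 28 marked bases, that of TUBB6 21 and that of TUBB 15, so that these ends differ clearly from TUBB4B. TUBB2A and TUBB2B were nearly identical, with 25 differing positions along the coding sequence (98.1% identity) and 2 in the window. Of all stretches of 150 bases in their transcripts, the read length of the study's sequencing, 41.4% in TUBB2A and 37.3% in TUBB2B were also found in another gene, compared with 0% in TUBB4B. Values of TUBB2A and TUBB2B are therefore uncertain as to which of the pair they belong to.

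Levels are in FPKM (fragments per kilobase of gene length, scaled to library size), which puts genes of different length on a common scale. The libraries held 14725462 to 16376331 recovered fragments. Log2 values correlated at 0.928 to 0.952 among the spheres and at 0.966 to 0.977 among adherent cell libraries, so the spheres varied more. Background knowledge of SKOV3 includes amplified ERBB2 and lost CDKN2A, and the data went against this: ERBB2 averaged 8.88 FPKM, rank 5379 of 15719 genes by mean level, and CDKN2A 47.8 FPKM (rank 840). The cells are therefore called by their label only. The epithelial keratin KRT7 was abundant in both states but lower in the spheres, at 148 ± 112 FPKM in the spheres and 562 ± 39.4 in adherent cells (SD, n = 3 each, log2 fold change -2.19, adjusted p = 0.0114 by limma). KRT18 and EPCAM were also lower (log2 fold change -1.07 and -2.36, adjusted p = 0.0033 and 0.00050 by limma). KRT8 had no call, at 53.5 ± 20.3 FPKM in the spheres and 61.3 ± 4.34 in adherent cells. Of the ovarian markers, WT1 was at 0 in every library and MUC16 at or under 0.0499 FPKM. PAX8 averaged 2.86 ± 0.501 FPKM in the spheres and 2.02 ± 0.311 in adherent cells, without a call.

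Of the 44 genes, 37 had a mean of at least 0.5 FPKM and were tested. In the spheres 11 were higher and 9 lower at an adjusted p under 0.05, and 17 had no call. These 20 calls are 54.1% of the tested members, compared with 33.6% of all genes tested, and the split is 29.7% higher and 24.3% lower, compared with 15.8% and 17.8% among all genes. MAP1B and TUBB4A passed the filter only through their levels in adherent cells. The median log2 fold change of the tested members was 0.20, and that of all 15719 tested genes was 0.0032. In 27 members (73.0%) the libraries of the states did not overlap, with the spheres above in 17 and below in 10, compared with 51.6% of all genes tested. Because earlier results were known when the members were chosen, these shares only describe the list. Tubulins (5 genes), stathmins (2) and lamins (2) made up most of the higher genes, beside TBCA and nestin, whereas lattice proteins and plus-end proteins had calls only in the lower direction (2 each). Called were 33.3% of the tested lattice proteins and 40% of the tested plus-end proteins, near the 33.6% of all genes tested.

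**Figure D1:**
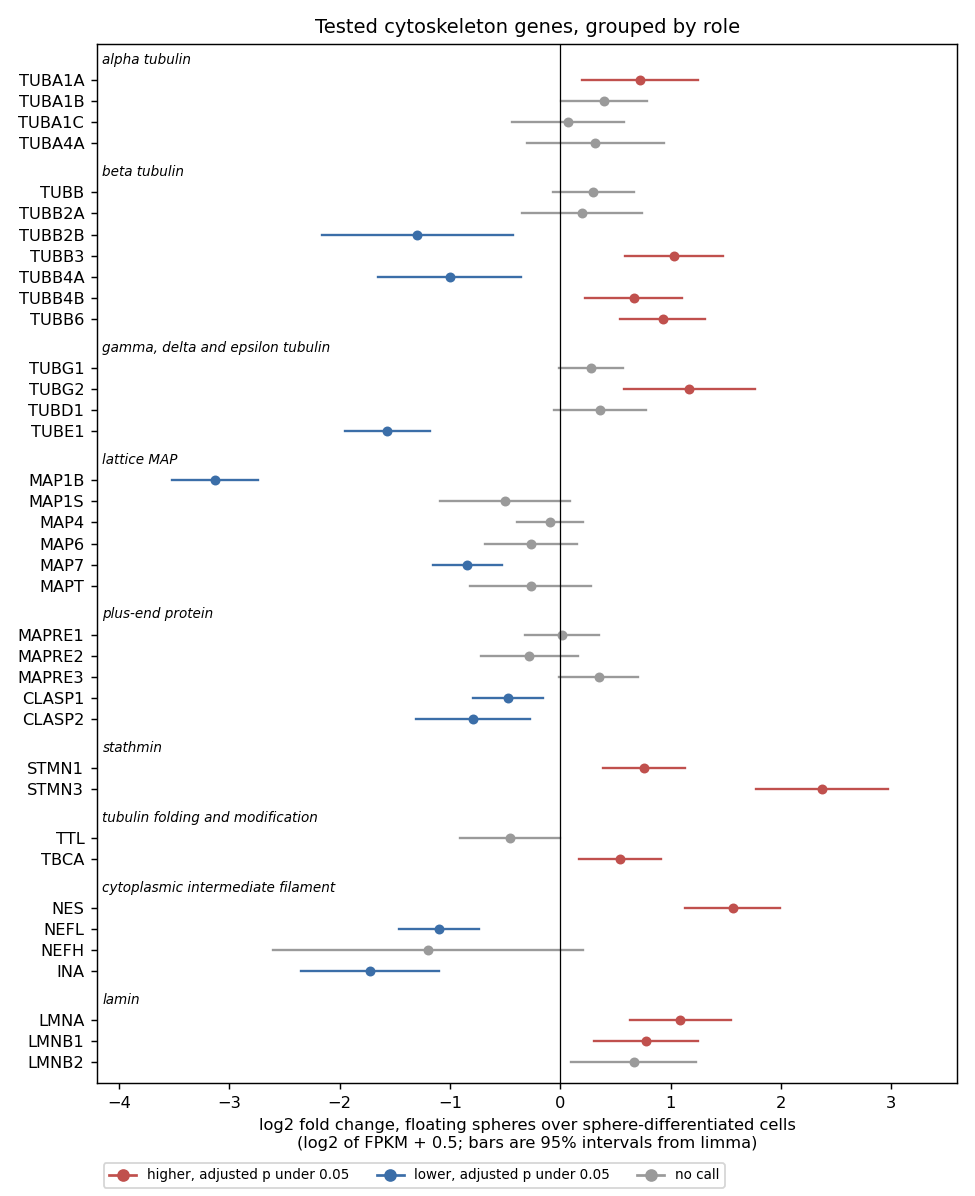
Log2 fold change of each tested gene (horizontal axis, floating spheres over sphere-differentiated cells, on log2 of FPKM plus 0.5) by role, with 95% intervals from limma. Colours mark genes higher, lower or without a call. STMN3 stands at the right end (2.37), MAP1B at the left end (-3.13), and no lattice or plus-end protein is called higher.

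Alpha tubulins were dominated by TUBA1B, the main housekeeping isotype, in both states. Summed over the 5 isotypes, alpha tubulin stood at 311, 224 and 240 FPKM in the spheres (replicates 1 to 3, the order used throughout) and at 198, 207 and 202 FPKM in adherent cells. The sums did not overlap, although replicate 2 of the spheres came close to the other state. Of the tested alpha isotypes 25% were called, compared with 33.6% of all genes tested. TUBA1A, a near copy of TUBA1B known for its role in the developing brain, was the only alpha isotype with a call. It stood at 29.4, 18.9 and 15.7 FPKM in the spheres and at 12.2, 13.0 and 11.8 FPKM in adherent cells. All sphere libraries lay above, replicate 1 most clearly, and the log2 fold change was 0.72 (SE 0.22, adjusted p = 0.0431 by limma). This call ended without sphere replicate 2 (adjusted p = 0.0607), without adherent cell replicate 1, 2 or 3 (0.107, 0.103 and 0.129), without a filter on low values (0.0942) and without the intensity trend (0.057), in a range of 0.0204 to 0.129 over 17 alternatives. The TUBA1A coding sequence is 97.2% identical to that of TUBA1B, with 0 differing bases in the last 75. Of the 150-base stretches of TUBA1A, 7.78% were also found in other genes, TUBA1C and TUBA1B among them. Some fragments counted for TUBA1A are therefore uncertain as to which isotype they belong to. In bulk RNA, fewer cells that express a gene and less of its RNA per cell cannot be told apart, here and below.

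TUBA1B averaged 150 ± 27.8 FPKM in the spheres and 112 ± 1.2 in adherent cells (SD, n = 3 each). Its libraries did not overlap, but the difference had no call (log2 fold change 0.40, adjusted p = 0.105 by limma), except without sphere replicate 2 (adjusted p = 0.0486, in a range of 0.0486 to 0.259 over the alternatives). TUBA1C averaged 66.2 ± 17.9 FPKM in the spheres and 61.5 ± 4.74 in adherent cells, and TUBA4A 21.4 ± 8.56 in the spheres and 16.2 ± 1.03 in adherent cells, both with overlapping libraries. TUBA8, an isotype of restricted expression, was not tested, at 0.0323 to 0.0655 FPKM in the spheres and 0.10 to 0.172 in adherent cells (2 to 9 fragments). As a share of the alpha sum, TUBA1B made up 57.8 ± 0.571% in the spheres and 55.5 ± 1.77% in adherent cells, TUBA1C 25.4 ± 4.45% in the spheres and 30.4 ± 1.66% in adherent cells, and TUBA1A 8.14 ± 1.47% in the spheres and 6.09 ± 0.212% in adherent cells. The shares of TUBA1A and TUBA1B did not overlap between states, by a narrow margin, while that of TUBA1C did. TUBA4A ranked above TUBA1A in adherent cells, whereas in the spheres their levels overlapped. Of the exon length of TUBA1B, 36.6% overlaps other annotated genes, as does 25% in TUBA1C and 14.3% in TUBA1A, and how such fragments were counted is not given in the sources used here.

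Beta tubulins were led by TUBB4B and TUBB, the broadly expressed isotypes. In the spheres 3 of 7 isotypes were higher and 2 lower (71.4% called, compared with 33.6% of all genes tested). Summed, beta tubulin came to 836, 642 and 789 FPKM in the spheres and 519, 523 and 522 FPKM in adherent cells, without overlap. TUBB4B stood at 474, 318 and 397 FPKM in the spheres and at 253, 234 and 253 FPKM in adherent cells. Every sphere library was above every adherent cell library, with a log2 fold change of 0.66 (SE 0.19, adjusted p = 0.0309 by limma). The call ended without sphere replicate 3 (adjusted p = 0.0687), without adherent cell replicate 1, 2 or 3 (0.0887, 0.107 and 0.111), without a filter (0.135), under quantile normalization (0.0915) and under a correction for GC content and length (0.194), in a range of 0.0110 to 0.194 over 17 alternatives. TUBB averaged 284 ± 29.6 FPKM in the spheres and 230 ± 15.2 in adherent cells (SD, n = 3 each), with no overlap and no call (log2 fold change 0.30, adjusted p = 0.171 by limma).

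TUBB6, an isotype that in cultured cells has been tied to less stable microtubules, had the smallest adjusted p among the beta isotypes. It stood at 77.3, 53.8 and 65.6 FPKM in the spheres, against 36.6, 33.2 and 32.1 FPKM in adherent cells. The lowest sphere library was well above the highest adherent cell library, with a log2 fold change of 0.93 (SE 0.17, adjusted p = 0.0063 by limma). TUBB3, the neuronal isotype that also appears in carcinomas, was measured at 1.76, 2.02 and 1.51 FPKM in the spheres, against 0.599, 0.645 and 0.576 FPKM in adherent cells. Levels were low in both states and the sphere libraries were all higher, with a log2 fold change of 1.03 (SE 0.19, adjusted p = 0.0070 by limma). Exon sequence overlapping other genes made up 20.3% in TUBB6 (AFG3L2, on the opposite strand) and 35.8% in TUBB3 (AC092143.1, on the same strand). Of the 150-base stretches, 10.7% in TUBB6 and 27.5% in TUBB3 were also found in other genes. Some fragments counted for TUBB3 are therefore uncertain as to which gene they belong to. The calls of TUBB6 and TUBB3 held in each alternative in which the genes were fitted, none of which addresses the shared sequence.

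TUBB2B and TUBB4A, both minor isotypes, were lower in the spheres. TUBB2B, an isotype of the developing nervous system, stood at 0.381, 1.76 and 0.671 FPKM in the spheres, against 3.86, 2.57 and 2.08 FPKM in adherent cells. These values rest on 14, 63 and 25 fragments in the spheres and on 134, 81 and 75 in adherent cells. The libraries did not overlap, although the highest sphere library came near the lowest adherent cell library, and the log2 fold change was -1.30 (SE 0.37, adjusted p = 0.0324 by limma). Without sphere replicate 1 or 3 (adjusted p = 0.0708 and 0.0862), without adherent cell replicate 1, 2 or 3 (0.106, 0.0917 and 0.0569) and without a filter (0.0929) the call was lost, in a range of 0.0081 to 0.106 over 16 alternatives. TUBB2A, its near-identical neighbour, averaged 6.56 ± 0.544 FPKM in the spheres and 5.86 ± 1.88 in adherent cells, with overlap and no call. Summed to avoid the question of assignment, the pair made up 1.01 ± 0.195% of beta tubulin FPKM in the spheres and 1.67 ± 0.397% in adherent cells. These shares almost met, at 1.215% in sphere replicate 2 and 1.218% in adherent cell replicate 2. They also depend on the beta sum, which was itself higher in the spheres. The summed FPKM of the pair overlapped between the states, with adherent cell replicate 2 the lowest library (TUBB2A 3.80 and TUBB2B 2.57 FPKM).

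TUBB4A, a brain isotype, stood at 0.0689, 0.425 and 0.238 FPKM in the spheres, against 0.966, 1.09 and 0.841 FPKM in adherent cells. The corresponding fragments were 4, 24 and 14 in the spheres and 53, 54 and 48 in adherent cells, so that every sphere library was lower. Its log2 fold change was -1.0 (SE 0.28, adjusted p = 0.0292 by limma), a value that the pseudocount of 0.5 FPKM holds down, since limma voom on recovered fragments gave -2.22. The call ended without sphere replicate 3 (adjusted p = 0.0542) and without adherent cell replicate 1, 2 or 3 (0.0871, 0.0958 and 0.0783), in a range of 0.0121 to 0.0958 over 16 alternatives.

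In shares of the beta sum, TUBB4B made up 52.2 ± 3.86% in the spheres and 47.3 ± 2.17% in adherent cells (SD, n = 3 each). TUBB made up 37.9 ± 4.15% in the spheres and 44.2 ± 2.76% in adherent cells. TUBB6 contributed 8.65 ± 0.519% in the spheres and 6.51 ± 0.478% in adherent cells. None of the 3 shares overlapped between states, with TUBB4B and TUBB6 larger and TUBB smaller in the spheres. TUBB4B ranked above TUBB in every sphere library, whereas in adherent cells their levels lay closer together, at 253, 234 and 253 FPKM for TUBB4B and 218, 247 and 226 FPKM for TUBB. The shares are descriptions without a test, and all 3 kept their order between states when computed from fragments in place of FPKM. The ranking of TUBB4B over TUBB holds for FPKM only. By fragments TUBB made up 46.1% and TUBB4B 40.0% on average in the spheres, and 53.1% and 35.8% in adherent cells.

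**Figure D2:**
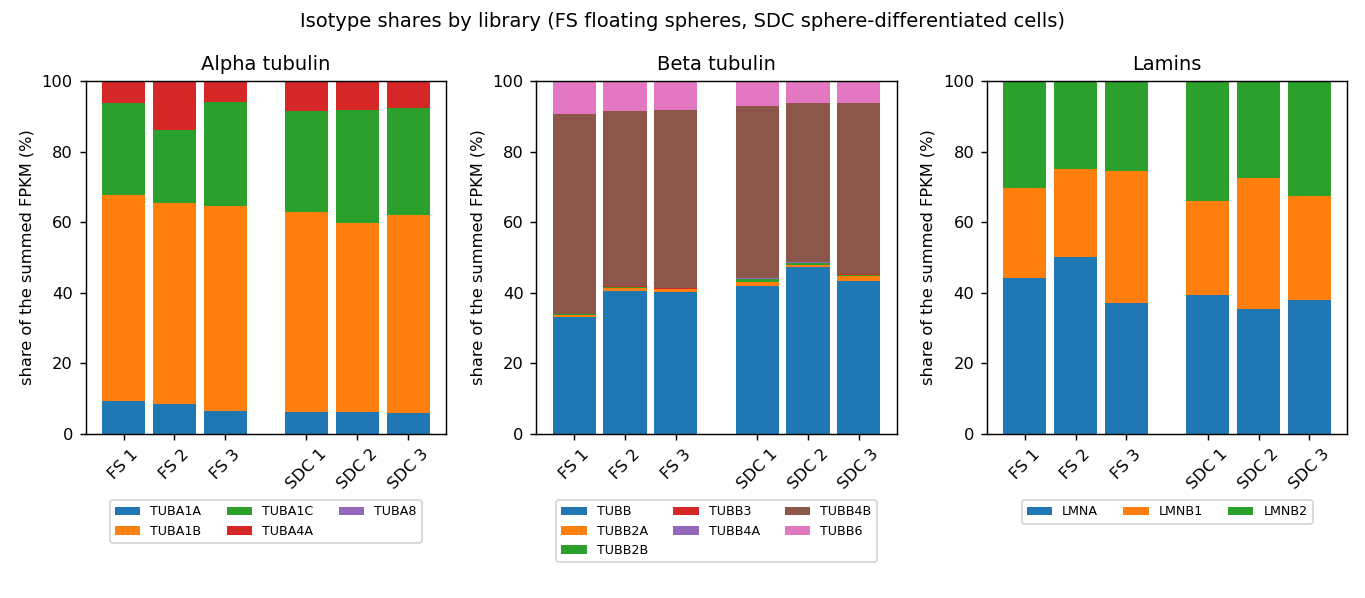
Share of each isotype in the summed FPKM of alpha tubulin, beta tubulin and lamins (vertical axis, percent) in each floating sphere (FS) and sphere-differentiated (SDC) library. TUBB4B and TUBB fill most of the beta bars, TUBB6 takes 8.32% to 9.25% in FS and 6.14% to 7.05% in SDC, and the lamin shares overlap.

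The remaining tubulins belong to centrosomes and centrioles. TUBG1, the main gamma tubulin, averaged 40.8 ± 1.31 FPKM in the spheres and 33.5 ± 2.28 in adherent cells (SD, n = 3 each), without overlap and without a call (log2 fold change 0.28, adjusted p = 0.119 by limma). TUBG2, its less abundant copy on the same chromosome arm (chr17:42659305-42667006, beside TUBG1 at chr17:42609676-42615234), stood at 12.2, 23.2 and 13.5 FPKM in the spheres, against 7.81, 5.58 and 6.79 FPKM in adherent cells. The sphere libraries were all higher, replicate 2 by the most, with a log2 fold change of 1.17 (SE 0.25, adjusted p = 0.0120 by limma). This call ended without adherent cell replicate 2 (adjusted p = 0.055, in a range of 0.0060 to 0.055 over 17 alternatives). TUBG1 and TUBG2 shared 91 stretches of 150 bases, 3.47% of those in TUBG1 and 3.14% of those in TUBG2.

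TUBE1 encodes epsilon tubulin, which is needed for the triplet microtubules of centrioles, and went the other way. It stood at 2.22, 2.95 and 1.98 FPKM in the spheres, against 7.60, 8.81 and 7.61 FPKM in adherent cells. The highest sphere library was far below the lowest adherent cell library, with a log2 fold change of -1.57 (SE 0.17, adjusted p = 0.0012 by limma) and a call in each of 17 alternatives. TUBD1, delta tubulin, which acts with epsilon tubulin at centrioles, averaged 3.29 ± 0.771 FPKM in the spheres and 2.42 ± 0.196 in adherent cells, without a call (log2 fold change 0.36, adjusted p = 0.159 by limma). With a correction for GC content and length its adjusted p was 0.0415, in a range of 0.0415 to 0.376 over 16 alternatives.

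Both tested stathmins were higher in the spheres (100%, compared with 15.8% of all genes tested). Stathmins bind free tubulin dimers and so keep them from polymerising. STMN3 (SCLIP), a stathmin best known from neurons (chr20:63639705-63657682), stood at 14.2, 25.1 and 12.1 FPKM in the spheres and at 2.92, 2.58 and 2.75 FPKM in adherent cells. The sphere libraries spread over a wide range and all lay far above, at a ratio of means of 6.24 and a log2 fold change of 2.37 (SE 0.26, adjusted p = 0.0013 by limma). STMN1 (oncoprotein 18), the stathmin of dividing cells, stood at 60.5, 57.6 and 72.6 FPKM in the spheres and at 34.0, 42.9 and 35.3 FPKM in adherent cells. There was no overlap, and the log2 fold change was 0.76 (SE 0.16, adjusted p = 0.0105 by limma). The STMN1 call ended without adherent cell replicate 3 (adjusted p = 0.0582, in a range of 0.0024 to 0.0582 over 17 alternatives), and that of STMN3 held in each. STMN2, the neuronal stathmin SCG10, was at 0 fragments in all 6 libraries, which allows up to 0.0747 to 0.0886 FPKM at 3 fragments (counting error only).

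TBCA, a chaperone that receives newly folded beta tubulin, stood at 43.4, 40.0 and 33.0 FPKM in the spheres and at 28.6, 23.0 and 27.8 FPKM in adherent cells. All sphere libraries were higher by a modest margin, with a log2 fold change of 0.54 (SE 0.16, adjusted p = 0.0353 by limma). Its call ended without sphere replicate 1 or 2 (adjusted p = 0.0685 and 0.0615), without adherent cell replicate 1, 2 or 3 (0.0696, 0.115 and 0.10) and without a filter (0.0602), in a range of 0.0194 to 0.115 over 17 alternatives. TTL, the ligase that puts a tyrosine back on the end of alpha tubulin, averaged 5.10 ± 1.3 FPKM in the spheres and 7.01 ± 0.295 in adherent cells. Its libraries did not overlap, and the difference had no call (log2 fold change -0.45, adjusted p = 0.109 by limma).

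Proteins that bind along the microtubule lattice included the log2 fold change of largest size among the 37 tested members. MAP1B, a lattice protein of growing axons (chr5:72107234-72209570), stood at 0.231, 0.175 and 0.214 FPKM in the spheres, against 5.11, 6.35 and 5.65 FPKM in adherent cells. Over its long transcript this was 49, 36 and 46 fragments in the spheres, against 1022, 1150 and 1174 in adherent cells. Few fragments were thus counted in any sphere library, at a ratio of means of 0.0363 and a log2 fold change of -3.13 (SE 0.17, adjusted p = 0.00027 by limma). The size depends on the scale and the call does not: the log2 fold change was -4.24 with a pseudocount of 0.1 FPKM, -2.47 with 1 FPKM and -4.72 in limma voom on fragments. None of the MAP1B exon length overlaps another gene. MAP1A, its relative in mature neurons, was too low to be tested and pointed the other way, at 0.657, 0.323 and 0.504 FPKM in the spheres and 0.143, 0.138 and 0.263 FPKM in adherent cells.

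MAP7 (ensconsin), which recruits kinesin to microtubules in epithelial cells, stood at 6.82, 5.43 and 6.41 FPKM in the spheres, against 11.7, 11.4 and 11.3 FPKM in adherent cells. The adherent cell libraries were almost equal and all above the spheres, with a log2 fold change of -0.84 (SE 0.13, adjusted p = 0.0041 by limma). The calls of MAP1B and MAP7 held in every alternative in which the genes were fitted. MAP4, the main lattice protein of non-neuronal cells, had no call, at 26.9 ± 2.50 FPKM in the spheres and 28.7 ± 0.647 in adherent cells (SD, n = 3 each), and the 95% interval of its log2 fold change was -0.39 to 0.21. MAP1S averaged 21.2 ± 7.76 FPKM in the spheres and 29.1 ± 3.61 in adherent cells, where sphere replicate 3 (29.8 FPKM) overlapped the other state. Without that library the difference had a call (log2 fold change -0.77, adjusted p = 0.0277 by limma, in a range of 0.0277 to 0.360).

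Tau (MAPT) and MAP6, both lattice stabilisers of neurons, were present at low levels in both states without a call. MAPT averaged 1.48 ± 0.560 FPKM in the spheres and 1.82 ± 0.116 in adherent cells, and MAP6 1.73 ± 0.307 in the spheres and 2.17 ± 0.287 in adherent cells. MAP2, the dendritic lattice protein, had at most 3 fragments in any library, and DCLK1, a doublecortin-like kinase used as a marker of tuft cells, at most 15. Of the 9 lattice proteins, then, 6 were tested, 2 were lower and 0 higher (33.3% called, compared with 33.6% of all genes tested). Their median log2 fold change was -0.38.

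Plus-end proteins ride on growing microtubule ends. CLASP1 and CLASP2, which stabilise those ends and hold them near adhesion sites at the cell edge, were both lower in the spheres. CLASP1 stood at 7.95, 8.15 and 9.24 FPKM in the spheres, against 11.1, 13.4 and 11.4 FPKM in adherent cells. The gap was small and complete, with a log2 fold change of -0.48 (SE 0.14, adjusted p = 0.0321 by limma). CLASP2 stood at 4.53, 2.40 and 4.09 FPKM in the spheres, against 5.90, 7.06 and 6.68 FPKM in adherent cells, lowest in sphere replicate 2. Its log2 fold change was -0.79 (SE 0.22, adjusted p = 0.0302 by limma). The CLASP1 call ended without sphere replicate 1 or 2 (adjusted p = 0.0597 and 0.0518), without adherent cell replicate 1, 2 or 3 (0.0661, 0.104 and 0.104) and under the GC and length correction (0.0571), in a range of 0.0231 to 0.104. That of CLASP2 ended without adherent cell replicate 1, 2 or 3 (adjusted p = 0.0619, 0.105 and 0.0977), without a filter (0.0737) and under the GC and length correction (0.0828), in a range of 0.0195 to 0.105.

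The end-binding proteins, to which most other plus-end proteins attach, had no call. MAPRE1 (EB1) was the most abundant of them, at 187, 170 and 176 FPKM in the spheres and 165, 191 and 172 FPKM in adherent cells. The states overlapped fully, and the 95% interval of the log2 fold change was -0.32 to 0.35, given the spread between these libraries. MAPRE2 (EB2) averaged 3.01 ± 0.740 FPKM in the spheres and 3.69 ± 0.241 in adherent cells, with overlap (SD, n = 3 each). MAPRE3 (EB3) averaged 6.16 ± 0.600 FPKM in the spheres and 4.75 ± 0.674 in adherent cells, without overlap (log2 fold change 0.35, adjusted p = 0.116 by limma).

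**Figure D3:**
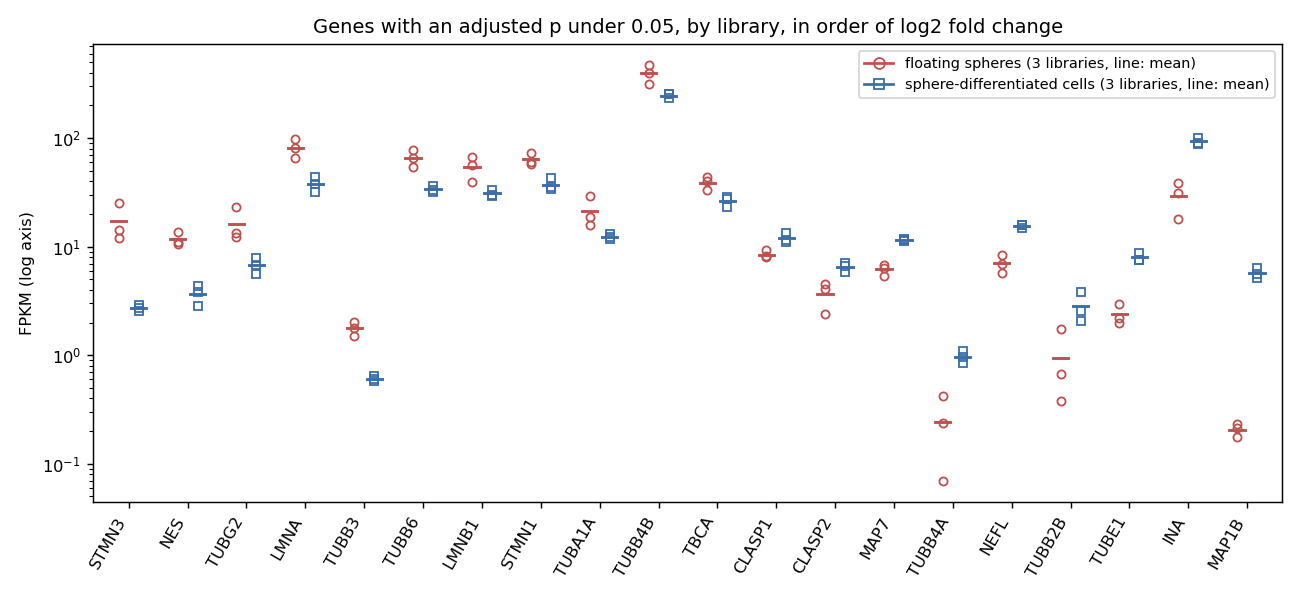
FPKM of the 20 genes with an adjusted p under 0.05 (vertical axis, log scale) in 3 floating sphere libraries (circles) and 3 sphere-differentiated libraries (squares), with lines at the means, in order of log2 fold change. The circles lie above the squares for the 11 genes from STMN3 to TBCA and below them for the 9 from CLASP1 to MAP1B, and for TUBB4B they span 318 to 474 FPKM.

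Of the 4 tested cytoplasmic intermediate filament genes, NES was higher in the spheres, INA and NEFL were lower, and NEFH had no call. The share called was 75%, compared with 33.6% of all genes tested. NES (nestin), a filament protein of neural and other progenitors often used as a stem cell marker, lies at chr1:156668763-156677397. NES stood at 10.9, 13.7 and 10.7 FPKM in the spheres and at 3.81, 2.85 and 4.38 FPKM in adherent cells. The groups were widely separated, at a ratio of means of 3.20 and a log2 fold change of 1.56 (SE 0.18, adjusted p = 0.0017 by limma). INA (alpha-internexin, chr10:103277163-103290351), a filament of developing neurons, was the most abundant of these genes in adherent cells. It stood at 38.4, 17.9 and 31.3 FPKM in the spheres, against 87.9, 101 and 90.3 FPKM in adherent cells, so that the highest sphere library was under the lowest of the other state. The log2 fold change was -1.72 (SE 0.27, adjusted p = 0.0040 by limma).

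NEFL, the neurofilament light chain, stood at 8.31, 7.0 and 5.78 FPKM in the spheres, against 14.8, 15.7 and 16.0 FPKM in adherent cells. Its libraries formed separate groups, and 11.3% of its exon length overlaps other genes, with a log2 fold change of -1.10 (SE 0.16, adjusted p = 0.0029 by limma). The calls of NES, INA and NEFL held in all 17 alternatives. NEFH, the neurofilament heavy chain, stood at 80.1, 11.3 and 28.2 FPKM in the spheres and at 68.4, 70.4 and 66.9 FPKM in adherent cells. Sphere replicate 1 was above every adherent cell library while replicates 2 and 3 were far below, and there was no call (log2 fold change -1.20, SE 0.60, adjusted p = 0.159 by limma). Without sphere replicate 1 the log2 fold change was -1.91 (adjusted p = 0.0104, in a range of 0.0104 to 0.356 over 17 alternatives), so this library decides the NEFH result. NEFM, the medium chain, which forms filaments with the other chains in neurons, had at most 2 fragments per library.

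VIM (vimentin), the filament of mesenchymal cells that SKOV3 is commonly described as expressing, had 7, 12 and 16 fragments in the spheres and 9, 4 and 5 in adherent cells, or 0.0541 to 0.183 FPKM over all libraries. Other annotated genes overlap 24.4% of its exon length, so most of its length is free of such overlap. INA, NEFH and NEFL were therefore far above vimentin in both states. As a share of the summed FPKM of the 6 filament genes, INA made up 34.9 ± 6.68% in the spheres and 51.4 ± 1.55% in adherent cells (SD, n = 3 each). NES made up 16.4 ± 9.94% in the spheres and 2.05 ± 0.498% in adherent cells. The filament sum was 138, 50.1 and 76.1 FPKM in the spheres, against 175, 190 and 178 FPKM in adherent cells, lower in each sphere library and least so in replicate 1, where NEFH was high.

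**Figure D4:**
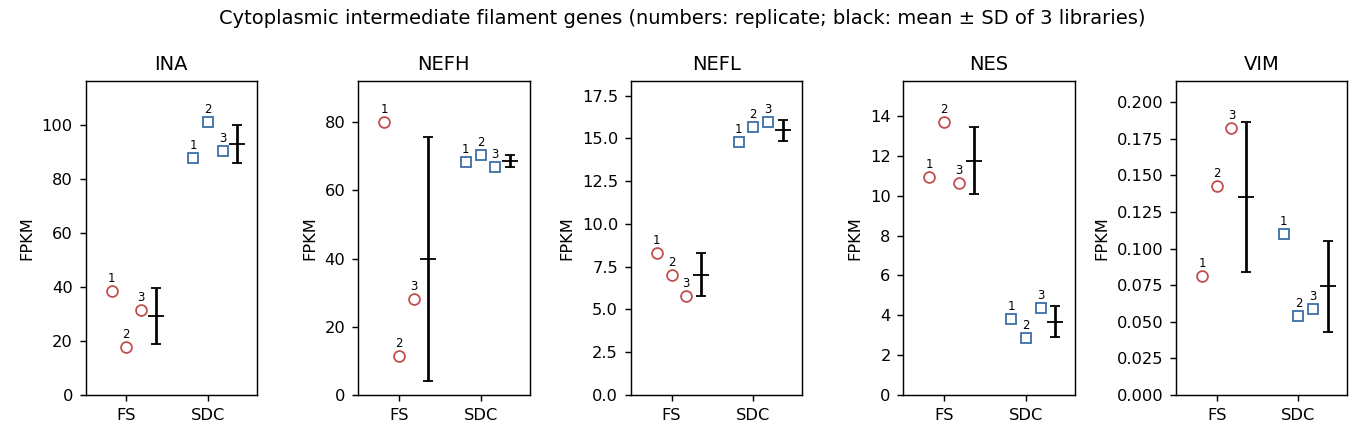
FPKM of 5 cytoplasmic intermediate filament genes (vertical axes, each with its own scale starting at 0) in floating sphere (FS) and sphere-differentiated (SDC) libraries, numbered by replicate, with mean and SD in black. NES is higher and INA and NEFL lower in every FS library, NEFH splits between FS replicate 1 (80.1 FPKM) and the others, and VIM stays at or under 0.183 FPKM.

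Several of these genes are known from neurons, and marker genes of other cell types were set beside them. Of 10 neuronal markers, 2 reached the level for testing, SNAP25 and DLG4, and neither had a call. SNAP25 averaged 1.36 ± 0.442 FPKM in the spheres and 1.34 ± 0.413 in adherent cells (SD, n = 3 each), and DLG4 0.959 ± 0.699 in the spheres and 0.603 ± 0.0989 in adherent cells. SYP, not tested, averaged 0.459 ± 0.138 FPKM in the spheres and 0.154 ± 0.0419 in adherent cells. The summed FPKM of the 10 was 2.03 to 3.77 in the spheres and 1.88 to 2.75 in adherent cells. ELAVL4, NEUROD1, GAP43 and SYT1 were at 0 in all libraries. Markers of fibroblasts and mesothelium summed to 23.0 to 31.6 FPKM in the spheres and 13.3 to 19.0 in adherent cells, with 2 of 4 tested genes higher and 0 of 11 at 0. Most of that sum was MSLN, at 21.7 ± 2.95 FPKM in the spheres and 12.5 ± 2.93 in adherent cells. The 2 higher genes were MSLN and COL3A1, the latter at 2.57 ± 0.489 FPKM in the spheres and 1.18 ± 0.105 in adherent cells. Of the 11 markers, 3 averaged at least 1 FPKM over all libraries, so the sum mainly follows MSLN. Markers of leukocytes and endothelium summed to 13.0 to 21.4 FPKM in the spheres and 10.7 to 14.4 in adherent cells, with 1 of 2 tested genes higher. That gene was PECAM1, at 5.88 ± 1.41 FPKM in the spheres and 2.68 ± 0.384 in adherent cells. CD14 had no call, at 11.7 ± 3.70 FPKM in the spheres and 9.28 ± 1.76 in adherent cells, and PTPRC, KDR, LYZ and CDH5 were at 0. The SKOV3 and ovarian epithelial markers summed to 237 to 535 FPKM in the spheres and 750 to 837 in adherent cells, with 1 of 8 tested genes higher and 3 lower. Each of the 3 lists other than the neuronal one thus had 50% of its tested genes called, compared with 33.6% of all genes tested. The part of the marker differences in the filament results was not tested.

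Lamins, the filaments under the nuclear envelope, had 2 of 3 members higher in the spheres, LMNA and LMNB1 (66.7%, compared with 15.8% of all genes tested). The summed level of the 3 lamins, given without a test, was 223, 160 and 178 FPKM in the spheres and 111, 90.2 and 100 FPKM in adherent cells, without overlap. LMNA, which encodes the A-type lamins that stiffen the nucleus and rise in differentiated tissues, lies at chr1:156082573-156140089. It stood at 98.6, 80.4 and 65.8 FPKM in the spheres and at 43.8, 32.0 and 38.1 FPKM in adherent cells. The lowest sphere library was well above the highest of the other state, at a ratio of means of 2.15 and a log2 fold change of 1.09 (SE 0.20, adjusted p = 0.0064 by limma), and the call held in all 17 alternatives. LMNB1, the B-type lamin that is reduced in senescent cells, stood at 56.7, 39.8 and 66.5 FPKM in the spheres and at 29.6, 33.6 and 29.6 FPKM in adherent cells. Sphere replicate 2 came closest to the other state, and the log2 fold change was 0.77 (SE 0.20, adjusted p = 0.0236 by limma).

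Leaving out sphere replicate 1 or 3 (adjusted p = 0.0513 and 0.0579), adherent cell replicate 1, 2 or 3 (0.0759, 0.0606 and 0.0888) or the filter (0.0546) ended the LMNB1 call, in a range of 0.0049 to 0.0888 over 17 alternatives. LMNB2, the other B-type lamin, stood at 67.8, 40.1 and 45.2 FPKM in the spheres and at 37.8, 24.7 and 32.6 FPKM in adherent cells. Its libraries did not overlap and its fold was close to that of LMNB1, but the adjusted p missed the threshold (log2 fold change 0.66, SE 0.24, adjusted p = 0.0693 by limma). It passed without sphere replicate 2 (adjusted p = 0.0471) and in limma voom on recovered fragments (0.0371), in a range of 0.0321 to 0.211 over 17 alternatives. Of the lamin sum, LMNA made up 43.8 ± 6.57% in the spheres and 37.6 ± 2.01% in adherent cells (SD, n = 3 each). LMNB1 made up 29.2 ± 7.14% in the spheres and 31.1 ± 5.47% in adherent cells, and LMNB2 27.0 ± 2.98% in the spheres and 31.3 ± 3.47% in adherent cells. All 3 shares overlapped between the states and were not tested.

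STMN1, LMNB1 and several tubulins are also known to rise in dividing cells, so 12 mitotic genes were set beside them. Their summed FPKM was 420 to 654 in the spheres and 404 to 443 in adherent cells. The median log2 fold change was 0.30, in a range of -0.20 to 0.75. Of these 12 genes 1 had a call (8.33%, compared with 33.6% of all genes tested). This was the mitotic kinase AURKB, at 38.2 ± 6.27 FPKM in the spheres and 22.5 ± 2.65 in adherent cells (log2 fold change 0.75, adjusted p = 0.0147 by limma, n = 3 each). The part of cell division in the tubulin, stathmin and lamin results was not tested.

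Further genes of microtubules, filaments and the nuclear envelope were called at a rate near that of all genes. Of 136, 114 were tested, of which 22 were higher in the spheres (19.3%, compared with 15.8% of all genes tested), 21 lower (18.4%, compared with 17.8%) and 71 without a call, with a median log2 fold change of 0.063. ATAT1, MTUS2 and EPPK1, named below, passed the filter only through the state in which each is high. In the list of enzymes that modify tubulin, 5 of 16 were higher and 1 lower (37.5% called, compared with 33.6% of all genes tested, the share to set beside each list below). KIAA0895L, also called MATCAP1, a peptidase that removes the terminal tyrosine of alpha tubulin and so opposes TTL, averaged 21.0 ± 6.60 FPKM in the spheres and 4.43 ± 0.764 in adherent cells (SD, n = 3 for these and the following values). Enzymes that add the acetyl group of alpha tubulin and enzymes that remove it were among the higher genes. The acetyltransferase ATAT1 averaged 1.98 ± 0.908 FPKM in the spheres and 0.352 ± 0.156 in adherent cells, the deacetylase HDAC6 averaged 9.0 ± 2.74 FPKM in the spheres and 3.80 ± 0.287 in adherent cells, and the deacetylase SIRT2 8.68 ± 0.450 in the spheres and 5.38 ± 0.240 in adherent cells. AGTPBP1, which trims glutamate chains from tubulin tails, was lower, at 4.23 ± 1.10 FPKM in the spheres and 11.8 ± 1.42 in adherent cells. AGBL5, another such trimming enzyme, was higher, at 10.1 ± 1.05 FPKM in the spheres and 6.66 ± 0.217 in adherent cells.

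Parts of the gamma tubulin ring that nucleates microtubules, listed together with proteins that work with it, also divided, with 3 of 10 higher and 2 lower (50.0% called). TUBGCP6 averaged 11.8 ± 2.18 FPKM in the spheres and 5.08 ± 0.520 in adherent cells, and the small subunit MZT2A 28.1 ± 2.17 in the spheres and 12.4 ± 3.06 in adherent cells. NEDD1, which brings the ring to centrosomes and spindles, was lower, at 12.7 ± 0.721 FPKM in the spheres and 28.1 ± 4.56 in adherent cells. TUBGCP4 was also lower, at 2.51 ± 0.135 FPKM in the spheres and 4.84 ± 0.228 in adherent cells, with 34.3% of its exon length shared with other genes.

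Among further end-binding proteins 3 of 17 were higher and 5 lower (47.1% called). CAMSAP1 and CAMSAP3, which protect minus ends away from the centrosome, were lower: CAMSAP1 averaged 5.76 ± 1.43 FPKM in the spheres and 15.4 ± 0.730 in adherent cells, and CAMSAP3 1.09 ± 0.424 in the spheres and 2.85 ± 0.604 in adherent cells. The plus-end polymerase CKAP5 was lower as well, at 35.8 ± 3.25 FPKM in the spheres and 66.2 ± 5.93 in adherent cells. NAV2, a plus-end binding protein, was higher at 3.26 ± 1.41 FPKM in the spheres, against 0.816 ± 0.0617 in adherent cells. Severing and depolymerising proteins had 1 gene in each direction among 10 (20% called), and the lower one, the severing protein SPAST (spastin), averaged 2.55 ± 0.526 FPKM in the spheres and 5.47 ± 0.779 in adherent cells.

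Of 14 further lattice proteins 3 were higher and 2 lower (35.7% called). EML3, of the EMAP family, averaged 12.1 ± 2.79 FPKM in the spheres and 2.61 ± 0.366 in adherent cells, and MTUS2 1.58 ± 0.134 in the spheres and 0.152 ± 0.0564 in adherent cells. Tubulin folding genes had 2 higher and 4 lower among 19 (31.6% called, at the level of all genes), among them the prefoldin subunit PFDN5 at 46.7 ± 10.7 FPKM in the spheres and 20.8 ± 1.39 in adherent cells. TBCEL, a relative of the folding cofactor TBCE, averaged 2.02 ± 0.311 FPKM in the spheres and 3.65 ± 0.514 in adherent cells. The 2 tested genes of 6 further tubulins had no call.

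Other filament and cross-linker genes had 3 higher and 2 lower among 8 (62.5% called). BFSP1 (filensin), a filament protein best known from the lens, averaged 2.34 ± 0.0656 FPKM in the spheres and 0.609 ± 0.149 in adherent cells. EPPK1 (epiplakin), which binds keratin networks, was lower, at 0.192 ± 0.0566 FPKM in the spheres and 1.91 ± 0.232 in adherent cells. At the nuclear envelope 2 of 18 genes were higher and 4 lower (33.3% called, at the level of all genes), with a median log2 fold change of -0.23 beside 0.77 for the lamins themselves. SUN2, which links the lamina to the cytoskeleton, was higher at 24.5 ± 4.16 FPKM in the spheres and 13.1 ± 1.90 in adherent cells, with 24.6% of its exon length shared with other genes. LEMD3, a protein of the inner nuclear membrane (10.3 ± 0.834 FPKM in the spheres and 16.1 ± 0.0907 in adherent cells), TOR1AIP2, a membrane partner of torsin A (3.61 ± 0.337 in the spheres and 5.89 ± 0.651 in adherent cells) and NUP153, a nuclear pore protein (15.0 ± 4.30 in the spheres and 33.1 ± 5.34 in adherent cells) were lower.

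**Figure D5:**
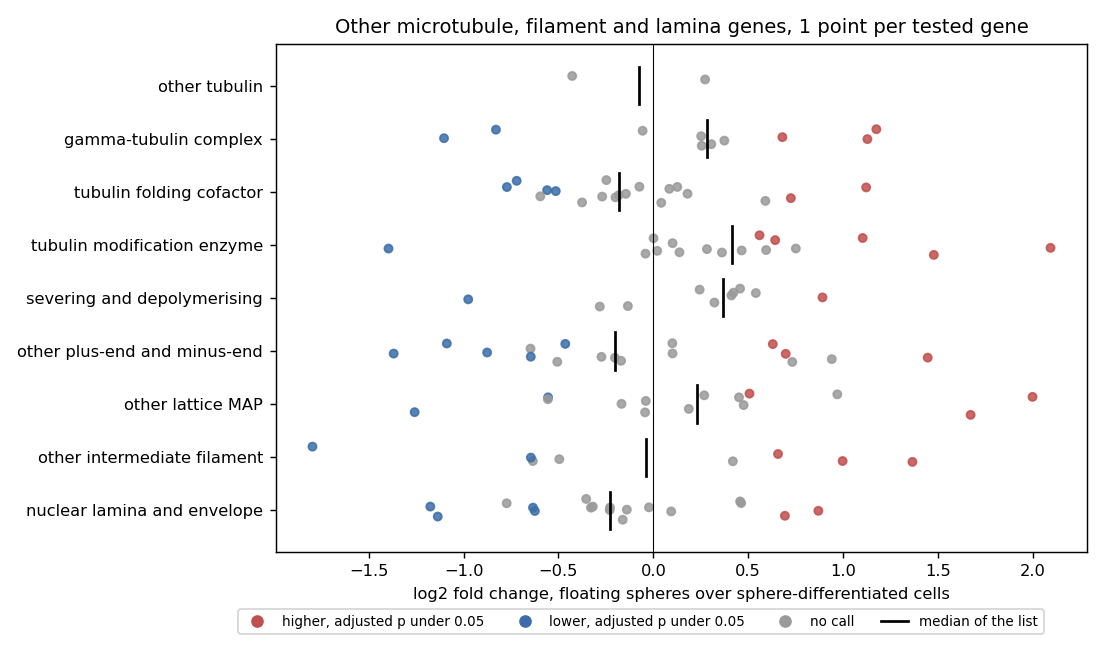
Log2 fold change of the 114 other tested genes (horizontal axis, floating spheres over sphere-differentiated cells) in 9 lists, with a point per gene, colours for the call and a black line at the median of each list. Higher and lower genes occur together in every list but that of other tubulins, and the medians stay between -0.23 and 0.41.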

How the data were processed

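RNA sequencing covered 3 floating sphere and 3 sphere-differentiated libraries. The deposited table gives FPKM, made by the authors for each library. The submitters' processing notes name hg38, featureCounts 1.5.0-p3 and DESeq2 1.20.0, and the study's methods name featureCounts and edgeR; the sources used here name no aligner, annotation or strand setting. Gene names were matched to GENCODE 29 (58708 of 58735 entries). Multiplying FPKM by merged exon length gave whole fragments for 100% of values within 0.01, at 96.2% to 103% of the totals implied by FPKM.

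The fit by limma 3.58.1 (R 4.3.3) took the 15719 genes whose mean reached 0.5 FPKM. It used log2(FPKM + 0.5), a trend of variance with intensity, group as the only term and Benjamini-Hochberg adjustment over all tested genes at 0.05, in place of a count test since the table holds FPKM. A fold change on this scale understates that of low genes. Of all tested genes, 5279 were called and 7197 had an unadjusted p under 0.05. The test was tried on simulated data with equal spread in both states, which does not cover the wider spread of the spheres. All 44 members were named, and of the other listed genes the called ones with the smallest adjusted p, up to 12 in each direction; 1 of the higher ones is not reported here. ERBB2, CDKN2A, KRT7, WT1, AURKB, MSLN, COL3A1 and the further marker genes given by name (marker lists) and ATAT1 and AGBL5 were named after their values were seen. Members and lists were chosen with earlier results of these data known. Alternatives (17) changed the pseudocount, filter, scaling, moderation, measure, replicate term or GC and length treatment, or left out a library. The study describes its cell culture work in general as independently repeated but does not say so of these libraries, so p-values measure the spread between libraries, which may be technical. Stretches of 150 bases shared between genes were counted in GENCODE 29 transcripts.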

Additional observations from a re-analysis of the deposited data

How the results depend on the processing

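Of the 20 calls, 10 held in every alternative in which the gene was fitted (TUBB3, TUBB6, TUBE1, MAP1B, MAP7, STMN3, NES, NEFL, INA and LMNA) and 10 were lost in at least 1, while 0 changed direction. Without a filter on low values 7 members were higher, and with a minimum mean of 5 FPKM 3402 genes were called. Leaving out 1 library at a time gave 2766 to 5303 called genes, 6 to 11 higher and 5 to 8 lower members, with fewer calls without a sphere-differentiated library (2766 to 3536 genes) than without a floating sphere library (4665 to 5303 genes), although 5 libraries were fitted each time. Directions changed among members without a call. The log2 fold change of TUBA1C was -0.0047 as TPM and -0.095 to 0.31 without 1 library (lowest without floating sphere replicate 1). TUBB2A gave -0.13 under the GC and length correction and -0.064 to 0.38 without 1 library (lowest without sphere-differentiated replicate 2), and MAP4 gave 0.0084 under that correction. MAPRE1 gave -0.062 as TPM, -0.11 under quantile normalization and -0.033 to 0.076 without 1 library, below 0 without floating sphere replicate 1 (-0.023) and without sphere-differentiated replicates 1 and 3 (-0.033 and -0.00068). The causes were not tested. Scaling to TPM, to medians of ratios or to quantiles left 10 or 11 members higher and 9 lower.

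Replicate numbers are shared between the states but showed no pairing, since deviations of same-numbered libraries correlated at -0.0205, -0.0738 and -0.0403. With a replicate block 4088 genes were called, 9 members were higher and 5 lower, and the calls of TUBA1A, TUBB2B, TUBB4A, TUBB4B, CLASP1, CLASP2 and TBCA were lost (adjusted p = 0.0531, 0.0538, 0.0598, 0.0589, 0.0716, 0.0569 and 0.0649), while LMNB2 gained a call (0.0321).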
